A study of Mus musculus with 12 samples.

Results

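The endothelial genes of the heart were taken here as 32 genes chosen by name for endothelial identity and for VEGF, Tie and Notch signalling. All 32 were found among the 26921 gene identifiers of the count table through their symbols in GENCODE M21, the mouse annotation on GRCm38, and all 32 were among the 11225 genes with enough counts to be tested. Their levels came from RNA-seq of left ventricular tissue of 16-week-old mice, with 6 libraries from WT and 6 from cmGch1 KO mice. WT mice carried Gch1 flox/flox alleles without Cre. Their cmGch1 KO littermates carried Gch1 flox/flox and heterozygous Cre recombinase (α-MHC-Cre +/−), so the presence of Cre and the loss of Gch1, the gene of the first enzyme of tetrahydrobiopterin synthesis, cannot be told apart between these groups. The α-MHC promoter that drives Cre is active in cardiomyocytes and not in endothelial cells, which kept their floxed Gch1 alleles. Because RNA came from whole ventricular tissue, fewer endothelial cells and less endothelial RNA per cell cannot be told apart in any level given here.

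Endothelial cells line the coronary arteries, capillaries and veins and the chambers of the heart, and capillary endothelium lies next to each cardiomyocyte. VEGF from surrounding cells acts through receptors on endothelial cells to keep them alive and to make them sprout, angiopoietins act through the Tie receptors to keep vessels quiescent, and Notch ligands and receptors on neighbouring endothelial cells set which cells sprout and which become arterial. Transcription factors of the ETS and SOXF families hold the endothelial programme together. Tetrahydrobiopterin is a cofactor of the nitric oxide synthases, of which the endothelial form is encoded by Nos3.

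Upstream sequences are shown for 4 of the genes, those of the VEGF receptor Kdr, the Tie receptor Tie1, the Notch ligand Dll4 and the matrix protein Egfl7, because many endothelial genes hold ETS sites near their start and because Dll4 and Egfl7 are described in most detail. RefSeq promoter sequences (GRCm38.p6) were matched for 16 of the 32 genes, with 21 start sites. The 250 bases before each start are printed 5′ to 3′ on the strand of the gene, with capitals for GGAAG, a form of the ETS core, or its reverse complement CTTCC. The regions are chr2:119325534-119325783 (plus strand) for Dll4, chr2:26580833-26581082 (plus strand) for Egfl7, chr5:75978456-75978705 (minus strand) for Kdr and chr4:118489850-118490099 (minus strand) for Tie1. For Egfl7, the start nearest to the 5′ end of the gene in GENCODE M21 was taken of the 3 matched. It lies 1069 bases inside the gene as annotated there, so its whole window is within the gene. The start of Tie1 lies 212 bases inside its gene, which holds most of its window. Those of Dll4 and Kdr lie 0 and 3 bases from the 5′ end of the gene.
Dll4: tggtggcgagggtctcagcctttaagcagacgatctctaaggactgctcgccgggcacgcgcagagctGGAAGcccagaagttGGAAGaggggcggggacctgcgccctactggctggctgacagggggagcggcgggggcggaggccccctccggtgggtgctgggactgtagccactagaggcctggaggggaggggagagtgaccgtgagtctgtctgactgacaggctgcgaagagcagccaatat
Egfl7: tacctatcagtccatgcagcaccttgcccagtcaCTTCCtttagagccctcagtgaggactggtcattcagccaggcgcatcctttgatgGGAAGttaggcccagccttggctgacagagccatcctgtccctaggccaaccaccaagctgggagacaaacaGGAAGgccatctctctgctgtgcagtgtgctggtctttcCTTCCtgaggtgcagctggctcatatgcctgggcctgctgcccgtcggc
Kdr: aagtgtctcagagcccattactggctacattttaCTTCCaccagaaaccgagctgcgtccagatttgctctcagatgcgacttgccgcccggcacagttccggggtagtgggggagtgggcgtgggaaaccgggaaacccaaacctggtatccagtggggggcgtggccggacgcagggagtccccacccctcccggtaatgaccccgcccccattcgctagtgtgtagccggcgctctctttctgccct
Tie1: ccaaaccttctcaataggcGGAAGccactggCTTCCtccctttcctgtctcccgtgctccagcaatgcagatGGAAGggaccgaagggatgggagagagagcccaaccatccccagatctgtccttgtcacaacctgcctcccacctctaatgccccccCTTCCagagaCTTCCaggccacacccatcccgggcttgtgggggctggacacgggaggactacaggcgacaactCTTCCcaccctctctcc
This form of the ETS core was the only one counted. It occurred 6 times in the window of Tie1, 4 times in that of Egfl7, 2 times for Dll4 and 1 time for Kdr. It was found before 17 of the 21 starts (81.0%), and among 32851 mouse promoters of the same length 64.1% held it on either strand. The core of the Notch factor RBPJ, TGGGAA or its reverse complement TTCCCA, which can share bases with the ETS core, was found before 5 of the 21 starts (23.8%) and in 21.6% of all promoters. The Dll4 sequence held none. These letters are a description of the windows, and whether any match is bound was not measured.

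The libraries held between 19921398 and 37917806 counts in genes. Gch1 itself had a log2 fold change of -0.96 (SE 0.11, edgeR quasi-likelihood test, FDR = 6.88e-04) in cmGch1 KO against WT. In cmGch1 KO replicates 2 and 3, Xist stood at 86.7 and 99.1 cpm and 4 Y-linked genes had 0 counts, whereas Xist was at most 0.234 cpm in the other 10 libraries. The Y-linked genes summed to 167 to 192 cpm in those 10. By these genes the 2 libraries came from female mice and the other 10 from male mice, although the labels give no sex. Sex was therefore not balanced between the genotypes, as all WT libraries had the male pattern. The part of sex in the levels was not tested apart from other differences of these 2 libraries. The same 2 libraries had the lowest share of mitochondrially encoded counts, 14.9% and 16.1%, against 18.3% to 22.9% elsewhere. Values without these 2 libraries are given for the genes described in most detail and, among the named genes with a log2 fold change of 0.1 or more in size, wherever they differ by over 1.5 times. Ccl2 and Mki67 were too low to be tested without them. Defining endothelial genes were high in every library, with Pecam1 at 157 cpm or more, Cdh5 at 147 or more and Kdr at 135 or more (cpm, counts scaled to library size with TMM factors).

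No endothelial gene changed between the genotypes at an FDR under 0.05, while 126 of all 11225 genes (1.12%) did by the same edgeR quasi-likelihood test. At an unadjusted p under 0.05 there were 3 of the 32 genes (9.38%), against 11.5% of all genes. Of these, Dll4 and Egfl7 had negative and Plvap positive log2 fold changes, against 4.51% of all genes with a negative and 7.01% with a positive one. Without cmGch1 KO replicates 2 and 3, 0 of the 32 had an unadjusted p under 0.05, against 6.99% of all genes. With 1 library left out the number was 5 without WT replicate 1 or cmGch1 KO replicate 6 (11.8% of all genes in both fits), 6 without cmGch1 KO replicate 1 (16% of all genes), and 2 to 4 in the other 9 fits (8.92% to 11.5% of all genes). Scaled by library size alone there were also 3, but all of them positive (Emcn, Plvap and Sox18), against 15.3% of all genes. The Wald test of DESeq2 called 0 of the 32 at an adjusted p under 0.05, against 3.32% of all genes. At an unadjusted p under 0.05 it gave 3 of the 32, against 12.7% of all genes. In 0 of the 32 genes did the 6 cmGch1 KO libraries lie wholly outside the range of the 6 WT libraries, against 1.87% of all genes.

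The differences between the genotypes were small and of both signs. Log2 fold changes were negative for 18 genes and positive for 14, with a median of -0.03 against -0.01 over all genes tested, and ran from -0.31 for Rgcc to 0.33 for Plvap. Their median size was 0.07, against 0.09 over all genes. For 29 of the 32 genes (90.6%) the 95% interval lay within a 1.5-fold change in either direction, as it did for 88.9% of all genes, and the exceptions were Plvap, Rgcc and Sox18. For 21 genes it lay within 1.3-fold, and the 11 exceptions were these 3 with Aqp1, Cldn5, Ecscr, Egfl7, Hey1, Robo4, Sox17 and Vwf. Summed over the 32 genes, the level was 2537 ± 149 cpm in WT (SD, n = 6, range 2356 to 2803). In cmGch1 KO it was 2485 ± 176 cpm (SD, n = 6, range 2323 to 2774), and the ranges of the genotypes overlapped almost completely. Abundant genes weigh most in this sum, such as Aqp1 with a mean of 470 cpm in WT.

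**Figure D1:**
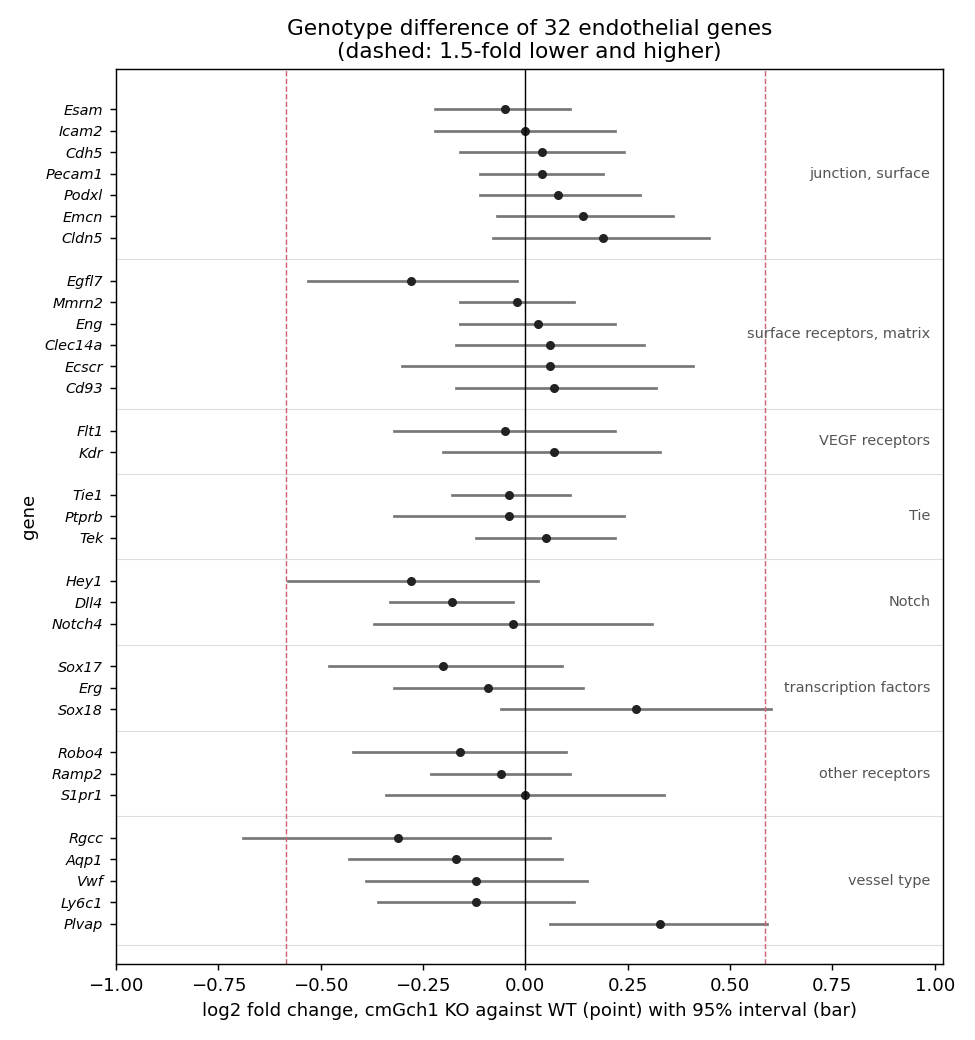
Genotype difference as the log2 fold change (horizontal axis, points, positive where higher in cmGch1 KO) with its 95% interval (bars) for the 32 endothelial genes, grouped by role from top to bottom, with dashed lines at 1.5-fold. All points lie between -0.31 and 0.33, and the intervals of Dll4, Egfl7 and Plvap leave out 0.

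Between genes, levels spanned 76.4-fold when counts were divided by exon length. This length joins all annotated exons of a gene, 16064 bases for Vwf, and can exceed that of its main transcript. The span and the order depend on this measure. In WT hearts the highest was Aqp1, a water channel of continuous capillaries, at 179 ± 19.1 cpm per kb (SD, n = 6). Next came Ly6c1, a surface protein of capillary endothelium, at 54.8 ± 4.55 cpm per kb, and the junction gene Cdh5 at 44.8 ± 6.57 cpm per kb. Ly6c1 has the near-identical neighbour Ly6c2, and reads shared by the pair make its level uncertain. The lowest were Sox17, a transcription factor of arterial endothelium, at 2.59 ± 0.494 cpm per kb and Vwf, the clotting protein von Willebrand factor, at 2.34 ± 0.356 cpm per kb. Only Aqp1 over Ly6c1 and Cdh5 over Eng, of the 31 neighbours in this order, were separated with no overlap of their 6 WT values. The order was almost the same in cmGch1 KO hearts (Spearman's rho = 0.986 across the 32 genes, as a description), and no gene moved by more than 4 places. Rgcc went from place 5 to 9 and Sox18 from 8 to 4.

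**Figure D2:**
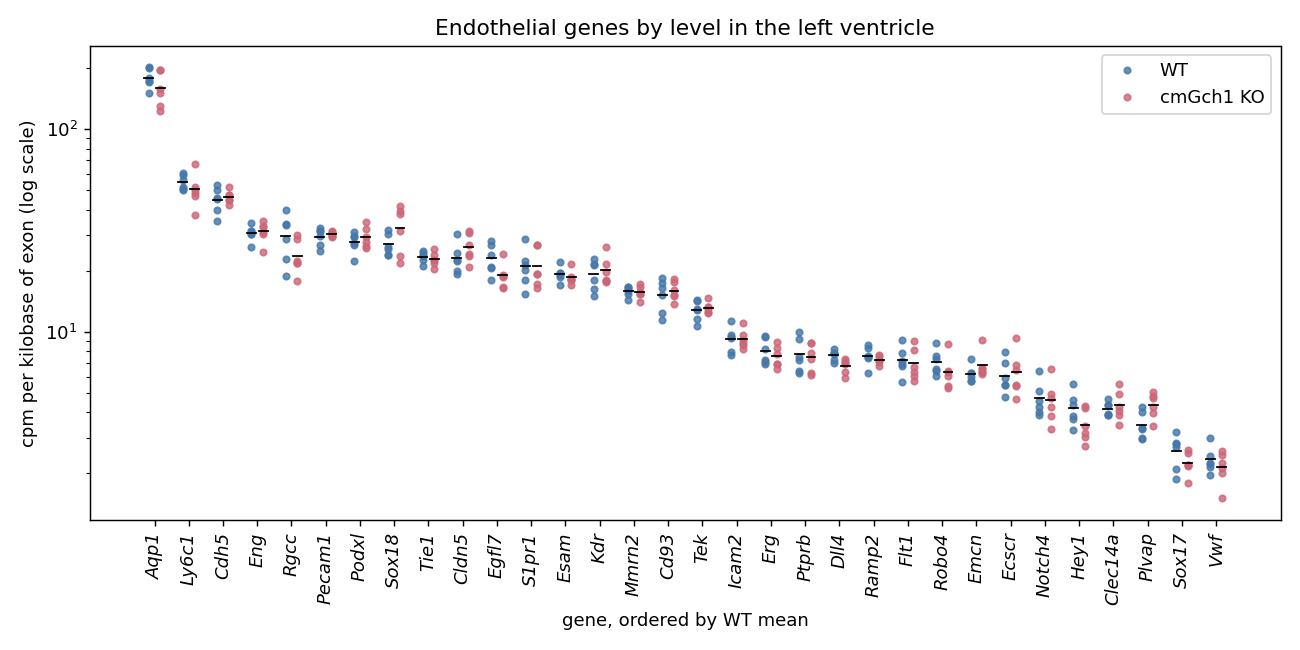
Level of each endothelial gene in cpm per kilobase of merged exons (vertical log axis) in the 6 WT and 6 cmGch1 KO libraries (points) with the mean of each group (bars), ordered by the WT mean. Aqp1 stands highest at 179 cpm per kb in WT, Vwf lowest at 2.34, and the points of the genotypes overlap in every gene.

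None of the 7 genes of cell junctions and the luminal surface had an unadjusted p under 0.05. Pecam1, an adhesion molecule of endothelial junctions (chr11:106654217-106750628), had a lowest, median and highest level of 157, 190.0 and 202 cpm in WT and of 182, 188 and 195 cpm in cmGch1 KO hearts. All the cmGch1 KO values lay inside the WT range (log2 fold change 0.04, SE 0.07, FDR = 0.916). Cdh5, which encodes VE-cadherin of the adherens junction (chr8:104101625-104144511), had 147, 191 and 223 cpm in WT and 177, 192 and 216 cpm in cmGch1 KO hearts, also inside the WT range (0.04, SE 0.09, FDR = 0.934). Of the other 5, the junction genes Esam and Icam2 and the sialomucin Podxl had log2 fold changes from -0.05 to 0.08. Cldn5, the claudin of endothelial tight junctions, had the most positive value of the 7, 0.19 (95% interval -0.08 to 0.45, FDR = 0.651), with 2 cmGch1 KO libraries above the WT range. For Emcn, a sialomucin of capillary and venous endothelium, the levels were 30.8, 33.0 and 39.6 cpm in WT and 33.5, 34.8 and 49.0 cpm in cmGch1 KO hearts. All 6 cmGch1 KO values lay above the WT median, but only 1 above the WT range (0.14, SE 0.10, FDR = 0.685). Without this library, cmGch1 KO replicate 1, the log2 fold change was 0.04.

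Neither VEGF receptor passed the test. Kdr encodes VEGFR2, the main signalling receptor (chr5:75932827-75978458, minus strand, with the upstream sequence above). It had a lowest, median and highest level of 135, 177 and 206 cpm in WT and of 158, 171 and 235 cpm in cmGch1 KO hearts. The groups overlapped in all but 1 cmGch1 KO library, and the log2 fold change was 0.07 (95% interval -0.20 to 0.33, FDR = 0.914). Flt1, the decoy receptor VEGFR1, had 76.6, 95 and 122 cpm in WT and 76.9, 87.9 and 122 cpm in cmGch1 KO hearts, with matching ranges (-0.05, interval -0.32 to 0.22, FDR = 0.944). Among 8 ligands, co-receptors and further receptors of the VEGF system, 7 were tested, 3 had negative and 4 positive values, and none passed the FDR. Vegfa, the chief ligand, had 290.0, 412 and 452 cpm in WT and 240.0, 274 and 458 cpm in cmGch1 KO hearts. 4 cmGch1 KO libraries lay below and 1 above the WT range (-0.27, interval -0.64 to 0.10, FDR = 0.62). The value was -0.16 without cmGch1 KO replicates 2 and 3 and -0.41 without replicate 6. Vegfb, a ligand of Flt1, had a log2 fold change of -0.06 (FDR = 0.914). Pgf, placental growth factor and another ligand of Flt1, had 3.06, 3.84 and 5.48 cpm in WT and 1.59, 2.16 and 3.92 cpm in cmGch1 KO hearts. 5 of its 6 cmGch1 KO values lay below the WT range, with a log2 fold change of -0.71 (SE 0.22) that did not pass the adjustment over all genes (edgeR FDR = 0.19; exact permutation p = 0.0173), and that was -0.38 in the deposited log2 values. Pgf passed the filter of cpm over 3 in 6 or more libraries mainly through its WT libraries, which favours a negative value.

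The Tie genes had log2 fold changes near 0. Tie1, the orphan receptor (chr4:118471191-118490061, minus strand), had a lowest, median and highest level of 104, 116 and 123 cpm in WT and of 100.0, 111 and 126 cpm in cmGch1 KO hearts. Tek, which encodes the angiopoietin receptor Tie2 (chr4:94739289-94874976), had 50.3, 60.6 and 67.6 cpm in WT and 58.6, 61.4 and 69.0 cpm in cmGch1 KO hearts. Ptprb, the phosphatase VE-PTP that acts on Tie2, had 83.6, 98.1 and 133 cpm in WT and 81.8, 101 and 118 cpm in cmGch1 KO hearts. The log2 fold changes of these 3 genes were -0.04, 0.05 and -0.04, with FDR values between 0.904 and 0.957 and overlapping groups in each. Of their 4 tested partners, Angpt1, the activating ligand, had -0.17 (interval -0.60 to 0.26, FDR = 0.852) and Angpt2, the antagonistic one, -0.19 (interval -0.57 to 0.20, FDR = 0.80), and none passed the FDR. Angpt2 had -0.11 without cmGch1 KO replicates 2 and 3.

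All 3 Notch genes had negative log2 fold changes, of which Dll4 came closest to the threshold. Dll4 encodes the main Notch ligand of arterial and tip endothelium (chr2:119325784-119335962, plus strand). Its lowest, median and highest levels were 27.1, 30.1 and 31.7 cpm in WT and 22.8, 26.9 and 28.2 cpm in cmGch1 KO hearts, with means of 29.5 ± 1.67 and 26.1 ± 2.12 cpm (SD, n = 6). All 6 cmGch1 KO values lay below the WT median and 4 of them below the WT range. The log2 fold change was -0.18 (SE 0.07, 95% interval -0.33 to -0.03), with p = 0.0253 before and FDR = 0.324 after adjustment by the edgeR quasi-likelihood test, and p = 0.013 by an exact permutation test (two-sided, smallest possible 0.00216). Without cmGch1 KO replicates 2 and 3 the log2 fold change was -0.16 (edgeR FDR = 0.751) and the unadjusted p was over 0.05. Over the 24 other fits that were tried, it lay between -0.20 and -0.10 and the unadjusted p was under 0.05 in 18.

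Hey1, a transcription factor switched on by Notch (chr3:8663359-8667256, minus strand), had a lowest, median and highest level of 10.7, 13.4 and 18.1 cpm in WT and of 8.91, 10.8 and 14.1 cpm in cmGch1 KO hearts. 3 cmGch1 KO values lay below the WT range (log2 fold change -0.28, SE 0.14, interval -0.58 to 0.03, FDR = 0.504). The receptor Notch4 had 31.3, 35.5 and 51.8 cpm in WT and 26.7, 36.1 and 52.5 cpm in cmGch1 KO hearts, with 2 cmGch1 KO values below and 1 above the WT range (-0.03, interval -0.37 to 0.31, FDR = 0.974). In the list of 14 further Notch genes, 10 had negative and 4 positive values with a median of -0.04, and none passed the FDR. Notch1 had -0.30 (interval -0.65 to 0.05, FDR = 0.536) and the ligand Jag1 -0.10 (FDR = 0.847, and -0.05 without cmGch1 KO replicates 2 and 3). The ligand Dll1 was the only one of the 14 at an unadjusted p under 0.05, at -0.31 (SE 0.14, FDR = 0.413), and had -0.19 without cmGch1 KO replicates 2 and 3 and -0.20 in the deposited log2 values.

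**Figure D3:**
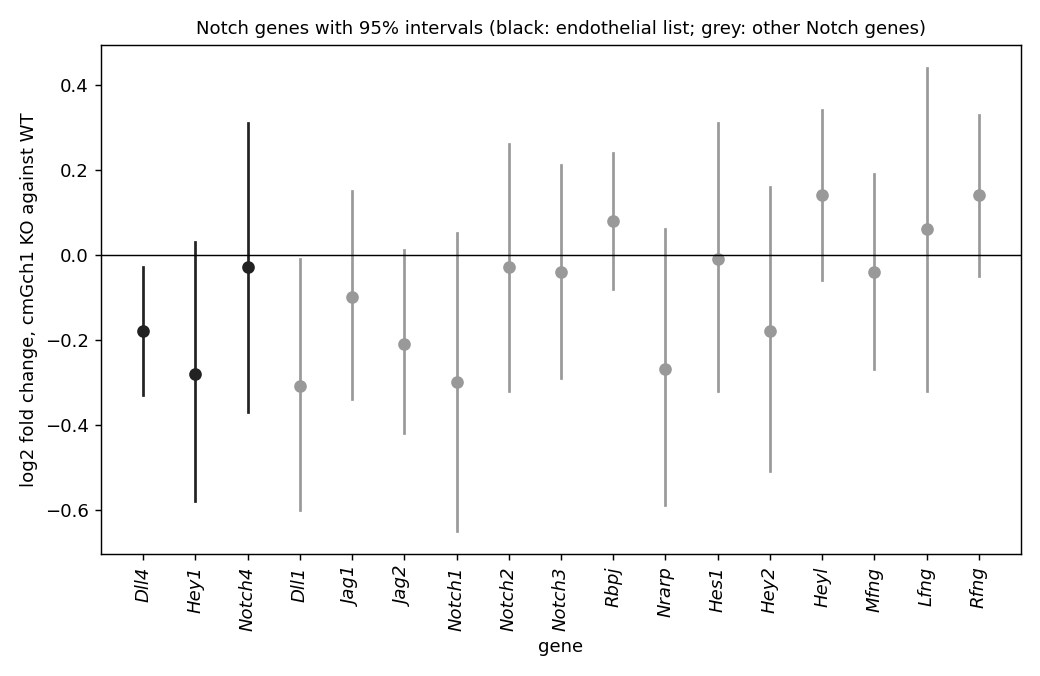
Genotype difference as the log2 fold change (vertical axis, points, positive where higher in cmGch1 KO) with 95% intervals (bars) for the 3 Notch genes of the endothelial list (black) and 14 further Notch genes (grey). The intervals of Dll4 (-0.33 to -0.03) and Dll1 (-0.60 to -0.01) leave out 0, and neither gene passed the FDR.

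Surface receptors and matrix proteins held the second gene with a low unadjusted p. Egfl7, a secreted matrix protein of endothelial cells whose gene also hosts the microRNA miR-126 (chr2:26580014-26593120, plus strand), had a lowest, median and highest level of 64.1, 79.8 and 101 cpm in WT and of 58.9, 67.2 and 86.7 cpm in cmGch1 KO hearts. 5 cmGch1 KO values lay below the WT median and 2 below the WT range. The log2 fold change was -0.28 (SE 0.12, interval -0.53 to -0.02, edgeR quasi-likelihood p = 0.037, FDR = 0.383; exact permutation p = 0.0714, two-sided). Without cmGch1 KO replicates 2 and 3 it was -0.23 (edgeR FDR = 0.895). Over the 24 other fits it lay between -0.36 and -0.20, with an unadjusted p under 0.05 in 14. Exons of Egfl7 overlap those of Agpat2 on the opposite strand, which had 767 to 2174 counts per library, and those of Gm20532 on its own strand, so that its counts depend on how reads in the overlap were assigned, which the sources used here do not give. Eng, the co-receptor endoglin of the ALK1 pathway, had 0.03 (interval -0.16 to 0.22, FDR = 0.956). The receptors Cd93 and Clec14a and their matrix ligand Mmrn2 had 0.07, 0.06 and -0.02, and Ecscr, a small surface protein, 0.06, with FDR values of at least 0.898. For the ALK1 pathway, 6 of 8 listed genes were tested, all 6 had negative values with a median of -0.12, and none passed the FDR, nor an unadjusted p of 0.05.

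Transcription factors had values of both signs. Erg, an ETS factor of endothelial identity, had 24.0, 26.8 and 33.0 cpm as lowest, median and highest level in WT and 22.6, 25.6 and 30.8 cpm in cmGch1 KO hearts, with overlapping groups (-0.09, interval -0.32 to 0.14, FDR = 0.847). Its relative Fli1 had -0.01 (FDR = 0.99). Of the SOXF factors, Sox17 had -0.20 (interval -0.48 to 0.09, FDR = 0.658) and Sox18 0.27 (interval -0.06 to 0.60, FDR = 0.564). Sox18 had a lowest, median and highest level of 38.8, 42.0 and 51.8 cpm in WT and of 35.4, 56.0 and 67.8 cpm in cmGch1 KO hearts. The 3 cmGch1 KO values above the WT range were 63.6, 67.8 and 61.5 cpm in replicates 2, 3 and 6, while 2 of the others lay below it. Without replicates 2 and 3 the log2 fold change of Sox18 was 0.08.

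Klf2, a flow-responsive regulator, had the lowest p of the 13 tested regulators listed beside the members, which include Nos3. Its lowest, median and highest levels were 48.6, 66.2 and 91.6 cpm in WT and 32.7, 42.7 and 60.7 cpm in cmGch1 KO hearts, with 4 cmGch1 KO values below the WT range. The log2 fold change of -0.60 (SE 0.19; exact permutation p = 0.026) did not pass the adjustment over all genes (edgeR FDR = 0.185). Nos3, the gene of endothelial nitric oxide synthase, had 25.3, 28.4 and 31.8 cpm in WT and 22.8, 29.1 and 34.6 cpm in cmGch1 KO hearts. The cmGch1 KO values of Nos3 lay on both sides of the WT range, 2 below and 2 above, and the log2 fold change was 0.02 (interval -0.21 to 0.25, FDR = 0.981).

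None of the 3 receptors for guidance cues, lipids and peptides had an unadjusted p under 0.05. S1pr1, the main sphingosine-1-phosphate receptor of endothelium, had 0.00 (interval -0.34 to 0.34, FDR = 1) and Ramp2, a subunit of the adrenomedullin receptor, -0.06 (interval -0.23 to 0.11, FDR = 0.855). Robo4, an endothelial Robo receptor, had -0.16 (interval -0.42 to 0.10, FDR = 0.715), with 5 of 6 cmGch1 KO values below the WT median. Without cmGch1 KO replicate 6, which had the highest of these values, it was -0.27 with an unadjusted p under 0.05, and without WT replicate 6 it was -0.09. Of 11 tested partners, 5 had negative and 6 positive values and none passed the FDR. The lowest p belonged to S1pr2, a second receptor of the same lipid, at 0.27 (SE 0.11, FDR = 0.35).

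Genes that differ between vessel types held both the most negative and the most positive value. Plvap builds the diaphragms of fenestrae and caveolae and is scarce in heart capillaries (chr8:71497765-71511752, minus strand). Its lowest, median and highest levels were 5.86, 6.59 and 8.49 cpm in WT and 6.82, 8.87 and 9.99 cpm in cmGch1 KO hearts, with means of 6.90 ± 1.08 and 8.68 ± 1.19 cpm (SD, n = 6). All 6 cmGch1 KO values lay above the WT median and 3 above the WT range. The log2 fold change was 0.33 (SE 0.12, interval 0.06 to 0.59, edgeR quasi-likelihood p = 0.0181, FDR = 0.278; exact permutation p = 0.0281, two-sided). Without cmGch1 KO replicates 2 and 3 it was 0.24 (edgeR FDR = 0.837), and over the 24 other fits it lay between 0.22 and 0.41 with an unadjusted p under 0.05 in 22. The exceptions were the fit without these replicates and the fit with sex-linked expression as a covariate. The fits share libraries and are not independent.

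Rgcc, a cell cycle regulator that is high in heart capillaries (chr14:79288756-79301645, minus strand), had 17.2, 28.5 and 36.5 cpm as lowest, median and highest level in WT and 16.3, 20.3 and 27.5 cpm in cmGch1 KO hearts. All 6 cmGch1 KO values lay below the WT median and 1 below the WT range (-0.31, SE 0.17, interval -0.69 to 0.06, FDR = 0.548, and -0.20 without cmGch1 KO replicates 2 and 3). Aqp1 had 398, 460.0 and 528 cpm in WT and 322, 405 and 516 cpm in cmGch1 KO hearts (-0.17, interval -0.43 to 0.09, FDR = 0.683). The lowest Aqp1 values of all 12 libraries were 322 and 343 cpm, in cmGch1 KO replicates 2 and 3, and without these libraries the log2 fold change was -0.03. Vwf and Ly6c1 both had -0.12, with FDR values of 0.814 and 0.774. Vwf had -0.25 without cmGch1 KO replicates 2 and 3, and -0.04 without WT replicate 2 or cmGch1 KO replicate 1. Ly6c1 had -0.23 without cmGch1 KO replicate 1, with an unadjusted p under 0.05, and -0.05 without cmGch1 KO replicate 4.

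**Figure D4:**
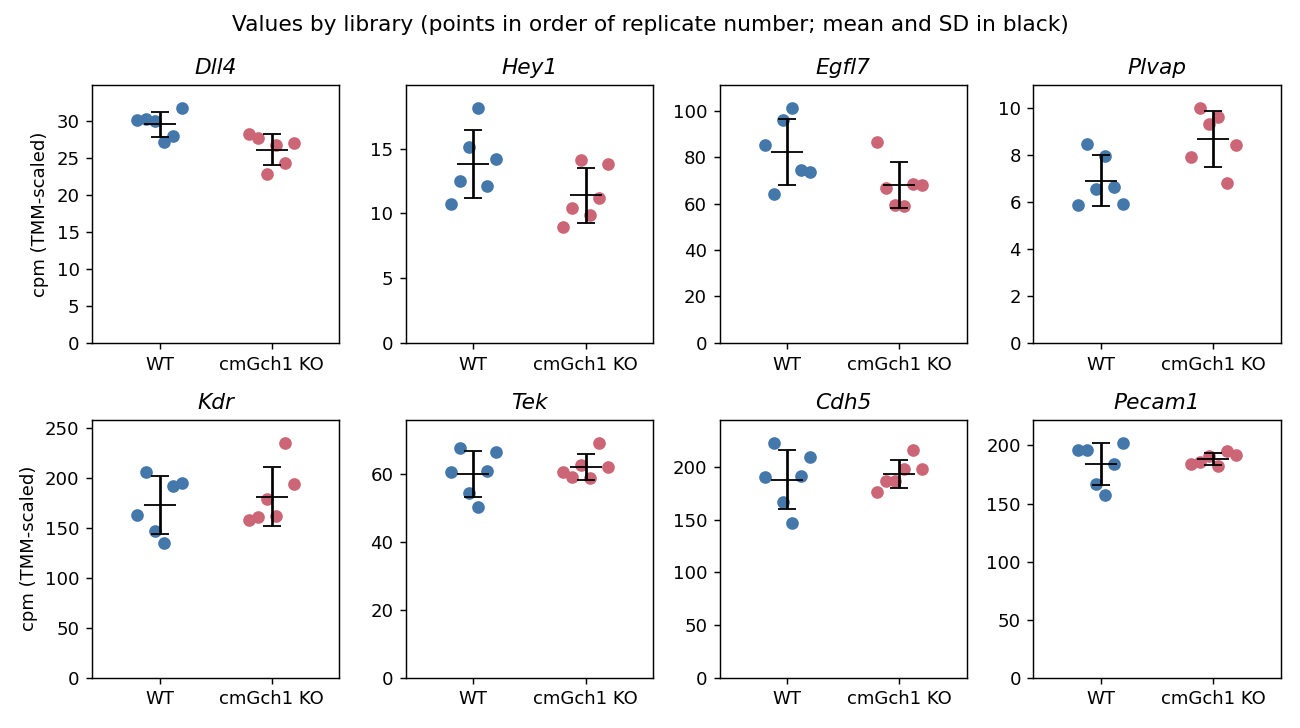
Level in cpm (vertical axes from 0) of 8 endothelial genes in each WT and cmGch1 KO library (points) with the mean and SD of each group (black). For Dll4 4 cmGch1 KO points lie below all WT points and for Plvap 3 lie above them, while Kdr, Tek, Cdh5 and Pecam1 have overlapping groups.

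The edgeR quasi-likelihood test called no marker of a vessel type. The lists share some genes with the 32 and with each other. Other cells of the ventricle can also express some of these markers, and their part in the values was not measured. Among 12 capillary markers 8 had negative and 4 positive values (median -0.10), among 11 arterial markers 6 and 5 (median -0.05), among 4 tested venous markers 2 and 2 (median -0.05), among 4 tested lymphatic markers 1 and 3 (median 0.04), and among 3 tested endocardial markers 1 and 2 (median 0.10). Vcam1, an adhesion molecule listed with the venous and activation markers, had 0.29 (SE 0.10, FDR = 0.219), and Pdpn, listed with the lymphatic markers, 0.47 (SE 0.22, FDR = 0.425), or 0.24 without cmGch1 KO replicates 2 and 3. The tip and angiogenic list had 3 negative and 2 positive values of 5 tested (median -0.19). Its gene Apln, a peptide ligand of tip cells, had 17.4, 22.7 and 26.0 cpm as lowest, median and highest level in WT and 13.9, 16.3 and 19.2 cpm in cmGch1 KO hearts. 3 of 6 cmGch1 KO values lay below the WT range (-0.41, SE 0.11, edgeR FDR = 0.115; exact permutation p = 0.0108), and the Wald test of DESeq2 gave an adjusted p of 0.0238. All 3 tested activation markers had positive values, the chemokine Ccl2 with 1.04 (SE 0.40, FDR = 0.309, and 0.51 in the deposited log2 values) among them, and the 1 tested cycling marker, Mki67, had 0.39 (SE 0.13, FDR = 0.216, and 0.20 in the deposited log2 values). Ccl2 ranged from 0.811 to 3.38 cpm in WT and from 1.47 to 7.59 cpm in cmGch1 KO hearts. Mki67 ranged from 2.05 to 3.51 cpm in WT and from 3.07 to 3.78 cpm in cmGch1 KO hearts. Both passed the filter of cpm over 3 in 6 or more libraries mainly through cmGch1 KO libraries, which favours a positive value. Over the 86 tested genes of these lists and the signalling partners, 46 had negative and 40 positive values, 0 passed the FDR by edgeR, and 9 (10.5%, against 11.5% of all genes) had an unadjusted p under 0.05, of which 4 were negative and 5 positive. Ccl2 and Mki67 were among the positive ones and Pgf among the negative ones.

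Markers of other cells of the ventricle were set beside the endothelial genes. All 10 cardiomyocyte markers were tested, 9 had negative values (median -0.17), 0 passed the FDR or an unadjusted p of 0.05, and their summed level was 75427 to 81303 cpm in WT hearts, against 67839 to 77470 cpm in cmGch1 KO. All 8 fibroblast markers had positive values (median 0.13, 2 at an unadjusted p under 0.05), with sums of 693 to 922 and 769 to 952 cpm. Of 7 tested macrophage markers, 6 had positive values (median 0.27, 5 at an unadjusted p under 0.05), with sums of 210.0 to 321 and 262 to 372 cpm. None of these genes passed the FDR. Of all genes, 4.51% had a negative and 7.01% a positive value at an unadjusted p under 0.05. Among 6 pericyte markers 4 had negative values (median -0.05), with sums of 982 to 1146 and 967 to 1088 cpm. All 5 erythroid markers had negative values (median -0.39), with sums of 391 to 1147 and 429 to 921 cpm. Of the 4 smooth muscle markers, 3 had negative values, and the sums of the 4 were 199 to 262 and 234 to 346 cpm. Acta2, named here after its values were seen, rose by 0.66 on the log2 scale (SE 0.11, edgeR quasi-likelihood FDR = 0.00672). It had 113 to 144 cpm in WT hearts. Its highest values were 242 and 233 cpm in cmGch1 KO replicates 2 and 3, against 162 to 195 cpm in the other cmGch1 KO libraries. The log2 fold change of Acta2 without these 2 replicates is not given here. Platelet, mesothelial and glial lists had 2, 1 and 1 tested genes, with FDR values of at least 0.855, and no lymphocyte or adipocyte marker was high enough to be tested, their sums being at most 3.19 and 8.58 cpm. The part of these cell types in the values of the endothelial genes was not tested.

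The endothelial genes did not vary as 1 block from heart to heart. The coefficient of variation between libraries had a median of 14.5% in WT and 15.2% in cmGch1 KO over the 32 genes, against 12.3% and 13.6% over all genes tested. With the genotype means subtracted, the correlation over the 12 libraries had a median of 0.05 over the 496 pairs of the 32 genes, against -0.00 over all pairs of tested genes, and a median size of 0.34 against 0.37. It ran from 0.93 for Cdh5 with Tek to -0.89 for Emcn with Eng, with 54 pairs over 0.7 and 13 under -0.7. The share of all pairs of tested genes past these limits is not given here. These counts can therefore not be read as particular to the 32 genes. These correlations share libraries and depth and are given as a description. Pecam1, Cdh5, Kdr, Tek, Podxl and Cd93 varied together between libraries, with pairwise r of 0.72 to 0.93, while Emcn, Icam2 and Ecscr formed a second set, with pairwise r of 0.77 to 0.81. Both sets were picked from these same correlations.

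Some of these genes followed gene length between libraries. In each library the log2 deviation from the mean of all libraries was fitted on log2 exon length over all tested genes, and in WT this slope lay between -0.109 and 0.088, in the cmGch1 KO hearts between -0.134 and 0.076, with no difference between genotypes detected (exact permutation test, two-sided, p = 0.933). The most negative slopes were those of cmGch1 KO replicate 1 and WT replicate 1. Ptprb, with 13333 bases of exon, followed the slope of the libraries with r = 0.91, Erg with 0.89, Flt1 with 0.80 and Kdr with 0.77. The others of the first set had r from 0.48 for Pecam1 to 0.75 for Cdh5, whereas Ecscr had r = -0.82, Emcn -0.80, Icam2 -0.79 and Egfl7 -0.77. Across the 32 genes this r rose with exon length (Pearson's r = 0.64, Spearman's rho = 0.66, across genes, which are not independent). Because the slope was itself fitted on exon length over all tested genes, these 32 among them, such a rise is built in. It was not set beside the same value over all genes and says nothing particular to the endothelial genes. Dll4 (r = -0.05) and Plvap (r = -0.00) did not follow the slope. Emcn has 5409 bases of exon and Erg 3466, so both stood far from the trend.

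**Figure D5:**
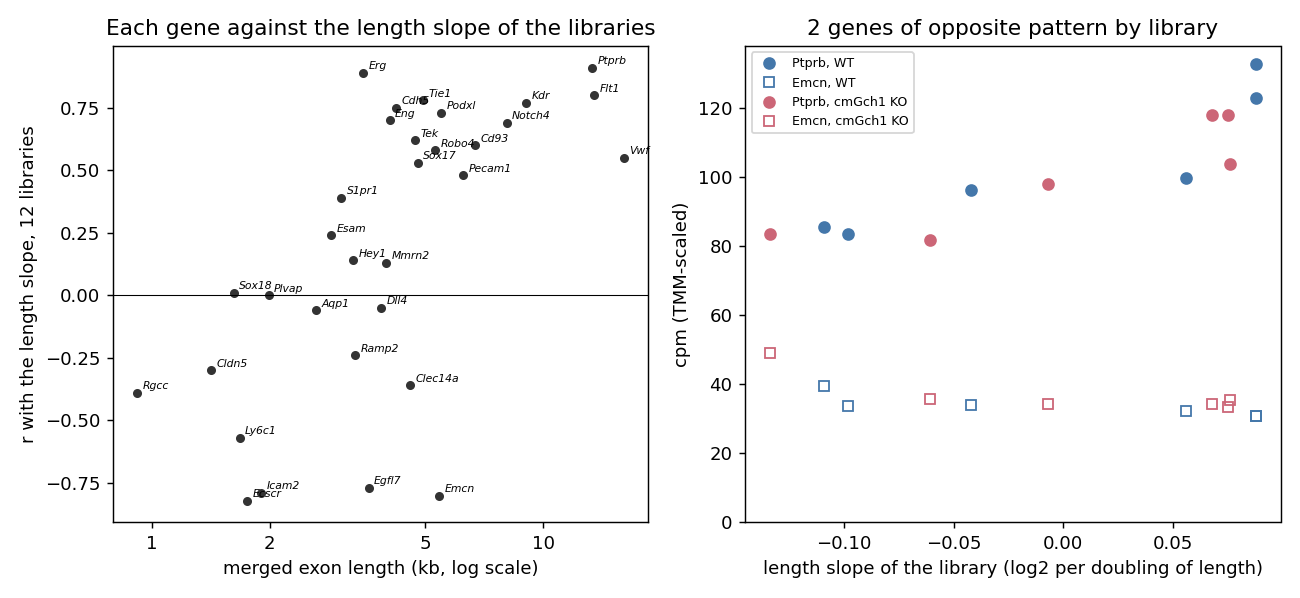
Left, correlation of each endothelial gene with the length slope of the libraries over 12 libraries after subtracting genotype means (vertical axis) against its exon length in kb (log axis). Right, cpm of Ptprb (filled circles) and Emcn (open squares) against the length slope of each WT and cmGch1 KO library, where Ptprb is highest and Emcn lowest in the libraries with the most positive slope.

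The 10 genes outside all the lists whose levels followed the mean of the 32 most closely over the 12 libraries, with genotype means subtracted, were Chka (r = 0.94), Dennd3, Prkar1a, Arap3, Tmem164, Trim25, Man2a1, Tmem184b, Xdh and Pomt1 (r = 0.90). They had log2 fold changes from -0.34 for Tmem164 to 0.12 for Prkar1a, and none passed the FDR. The mean of the 32 that they followed lay highest in WT replicate 6, at 0.12 log2 units above the mean of all libraries, and in cmGch1 KO replicate 6, at 0.11.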

How the data were processed

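RNA-seq of 12 left ventricles was used, 6 per genotype, with genotypes and replicate numbers from the labels. According to the methods, the authors made stranded libraries with dUTP and counted reads per gene (HISAT2, Picard, featureCounts). The submitters' processing notes name HISAT2, SAMtools and GRCm38. Which annotation was used, and with which strand setting, is not given in the sources used here. The deposited table of raw counts per Ensembl gene was the basis of each result. The authors also deposited normalized values on a log2 scale, which served as an alternative only. Of the 26921 identifiers, 26582 (98.7%) were found in GENCODE M21. No library was a copy of another: in 30 within-genotype pairs, counts differed with a chi-square of at least 12.5 per degree of freedom.

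Counts were analysed with edgeR 4.0.16 in R 4.3.3, with TMM scaling, a filter of cpm over 3 in 6 or more libraries, the quasi-likelihood test of genotype and Benjamini-Hochberg adjustment over all 11225 genes (FDR threshold 0.05). Each library stands for 1 mouse as far as the sources say. The script was tested on simulated data. Single genes were also compared by an exact permutation test on cpm. Levels between genes were divided by merged exon length, and correlations used log2 cpm with a prior count of 2. Alternatives were the size factors of DESeq2, library size alone, leaving out mitochondrially encoded genes, no filter, a filter on mean cpm, filterByExpr, a replicate block, a covariate of sex-linked expression, 1 surrogate variable (sva 3.50.0), the Wald test of DESeq2 1.42.0, limma 3.58.1 on the deposited log2 values, leaving out cmGch1 KO replicates 2 and 3, and leaving out each library in turn.

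The text names all 32 members, Gch1, those partner or vessel type genes past the FDR, up to 3 in each direction of a list at an unadjusted p under 0.05, Vegfa, Vegfb, Angpt1, Angpt2, Notch1, Jag1, Fli1 and Nos3, and the 10 genes most like the mean of the members. The members and all lists were chosen with earlier results of these data known.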

Additional observations from a re-analysis of the deposited data

Results flagged for a closer look

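In 4 of the 100 groups of 6 libraries examined (50 genes in 2 genotypes), 1 library stood far from the other 5 by Dixon's criterion at 95%, and chance alone gives about 1 in 20. Emcn was highest in WT replicate 1, at 39.6 cpm against 30.8 to 34.0 cpm in the other 5. It was also highest in cmGch1 KO replicate 1, at 49.0 cpm against 33.5 to 35.7 cpm. Egfl7 stood at 86.7 cpm in cmGch1 KO replicate 1, against 58.9 to 68.5 cpm in the other 5 cmGch1 KO libraries. Robo4 stood at 45.9 cpm in cmGch1 KO replicate 6, against 28.1 to 33.9 cpm. The libraries that stood apart for Emcn and Egfl7 were those with the most negative slope on exon length in their genotype, -0.109 for WT replicate 1 and -0.134 for cmGch1 KO replicate 1, and the part of this slope in their levels was not tested.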

How the results depend on the processing

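Each of the 24 other settings called 0 of the 32 endothelial genes. The smallest adjusted p of a member in any of them was 0.0853, for Egfl7 with a surrogate variable. At an unadjusted p under 0.05, no member was left without cmGch1 KO replicates 2 and 3 or with sex-linked expression as a covariate, against 3 in the fit as reported. Of all genes, 6.99% and 7.42% had such a p in these fits, against 11.5% in the fit as reported. The labels do not say that the replicate numbers pair the samples. Same-numbered libraries correlated between -0.13 and 0.68, with 3 of 6 over 0.1, and 5 of 12 libraries correlated best with their own number. Whether the numbers pair the samples cannot be told from these values. The replicate block called 188 genes of all tested against 126 and 0 members, with 7 members at an unadjusted p under 0.05, as had 16.3% of all genes. It gave 0.00 for Icam2 and for S1pr1.

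Partner and vessel type genes called numbered 4 with a surrogate variable (Apln -0.41, Ccl2 1.16, Notch1 -0.30 and Jag2, the last named after its values were seen; 4.65% of those tested, against 5.67% of all genes) and 1 with the Wald test of DESeq2 (Apln, -0.41), against 0. Under library size alone the median of the members was 0.05, against 0.07 over all genes, and the median correlation between members 0.11. The sign changed for 15 members and for 17 it did not. Values that changed sign were at most 0.07 in size as reported and at most 0.09 afterwards. Under library size alone Esam and Flt1 had 0.02, Icam2 and Fli1 0.07, Mmrn2 0.06, Tie1 and Notch4 0.04, Ptprb 0.03, Ramp2 and Vegfb 0.01. With sex-linked expression as a covariate Icam2 had 0.02, Clec14a -0.08, Flt1 and Ptprb 0.01. Without cmGch1 KO replicates 2 and 3 these were 0.01, -0.09, 0.03 and 0.03. Icam2 had 0.00 without mitochondrially encoded genes and with a surrogate variable. S1pr1 had -0.01 with no filter, with filterByExpr, with a surrogate variable and in the deposited values, and 0.00 by DESeq2. Nos3 had 0.00 in the deposited values. The cause was not tested.

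With 1 library left out at a time, members called stayed at 0, the median of the members lay between -0.07 and 0.02 and the median correlation between -0.02 and 0.09. The ranges that crossed 0 were Icam2 -0.06 to 0.07, Fli1 -0.07 to 0.04, S1pr1 -0.09 to 0.11, Nos3 -0.04 to 0.08, Ptprb -0.10 to 0.04, Notch4 -0.16 to 0.07, Eng -0.01 to 0.09, Ecscr -0.08 to 0.15, Flt1 -0.14 to 0.02, Cdh5 -0.02 to 0.10, Mmrn2 -0.05 to 0.01, Clec14a -0.02 to 0.12, Pecam1 -0.00 to 0.07 and Kdr -0.02 to 0.13. The 6 libraries per genotype left standard errors of 0.07 to 0.17 for the members, with 130 to 18698 counts of each in a library, and 11 of the 32 intervals did not lie within 1.3-fold.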
